A study of Mus musculus with 73 samples.

Results

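The FGF signalling and feedback genes described here are 10 genes taken by name: the ligand Fgf4, the 4 receptors Fgfr1, Fgfr2, Fgfr3 and Fgfr4, the feedback inhibitors Spry2, Spry4 and Dusp6, and the ETS transcription factors Etv4 and Etv5. All 10 were found among the 25220 gene symbols measured. The series is about histone H3.3 in early mouse embryos, and its RNA-seq compared 8-cell embryos carrying p150DN (3 libraries) with 8-cell embryos carrying EGFP (3 libraries), with EGFP blastocysts (2 libraries) as the later stage. All 3 groups were of a hybrid C57BL/6 / C3H background and were grown in KSOM medium, each library was made from total RNA of whole embryos, and the labels give no embryo age beyond the stage. Chaf1a encodes p150, a subunit of the chromatin assembly factor CAF-1, and p150DN names a dominant-negative form of it, with EGFP as the control. The sources used here do not give how and when p150DN and EGFP were introduced, or how many embryos went into a library. Nothing in the labels says whether replicates are separate cultures or litters, and the p-values below therefore describe library-to-library spread that may be technical.

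FGF ligands bind receptor tyrosine kinases at the cell surface and, through adaptors and RAS, activate the kinase ERK. In the mouse blastocyst FGF4 is made by the pluripotent cells of the inner cell mass, and its reception through FGFR1 and FGFR2 is known for driving some of these cells to primitive endoderm and for sustaining the trophectoderm lineage. Sprouty proteins and the phosphatase DUSP6 are made in response to ERK and limit it, and the ETS factors ETV4 and ETV5 are standard transcriptional readouts of FGF activity. Messenger RNA was measured here, not protein or ERK phosphorylation. Values are in FPKM (fragments counted on a gene, divided by its length and by the library total), so levels may be set side by side between genes. Isoforms of a receptor gene, some of which bind different ligands, are not separated in one value per gene. In RNA from whole embryos, fewer cells of a type and less RNA per cell cannot be told apart.

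The RefSeq promoter windows of 4 genes whose levels passed a test below are shown first, because they include a receptor gene that was higher in blastocysts and a pair of receptor genes that were lower. Each window runs from 250 bases before to 50 bases after an annotated start, in build GRCm38.p6, 5′ to 3′ on the strand of the gene, with every CpG in capitals. The windows lie at chr7:130266759-130267058 on the minus strand (Fgfr2), chr5:33721474-33721773 on the plus strand (Fgfr3, the first of 2 windows), chr13:55152568-55152867 on the plus strand (Fgfr4) and chr16:22439521-22439820 on the minus strand (Etv5, the first of 2 windows).
Fgfr2: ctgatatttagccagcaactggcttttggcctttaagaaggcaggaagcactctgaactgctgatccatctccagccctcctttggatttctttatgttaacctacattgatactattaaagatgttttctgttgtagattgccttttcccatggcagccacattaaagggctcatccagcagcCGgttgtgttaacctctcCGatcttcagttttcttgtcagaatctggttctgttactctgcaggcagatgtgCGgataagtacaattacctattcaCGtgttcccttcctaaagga
Fgfr3: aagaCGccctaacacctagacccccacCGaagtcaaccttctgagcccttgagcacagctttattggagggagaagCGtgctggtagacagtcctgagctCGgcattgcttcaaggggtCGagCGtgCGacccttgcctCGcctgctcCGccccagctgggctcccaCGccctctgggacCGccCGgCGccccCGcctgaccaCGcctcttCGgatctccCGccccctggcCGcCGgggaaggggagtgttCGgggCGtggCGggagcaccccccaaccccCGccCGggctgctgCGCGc
Fgfr4: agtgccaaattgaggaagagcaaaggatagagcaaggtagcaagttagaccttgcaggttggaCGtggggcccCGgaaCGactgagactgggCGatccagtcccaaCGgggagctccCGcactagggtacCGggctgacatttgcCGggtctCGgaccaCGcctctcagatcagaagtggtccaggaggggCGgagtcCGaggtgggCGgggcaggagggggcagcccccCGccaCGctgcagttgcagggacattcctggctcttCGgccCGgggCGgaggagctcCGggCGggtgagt
Etv5: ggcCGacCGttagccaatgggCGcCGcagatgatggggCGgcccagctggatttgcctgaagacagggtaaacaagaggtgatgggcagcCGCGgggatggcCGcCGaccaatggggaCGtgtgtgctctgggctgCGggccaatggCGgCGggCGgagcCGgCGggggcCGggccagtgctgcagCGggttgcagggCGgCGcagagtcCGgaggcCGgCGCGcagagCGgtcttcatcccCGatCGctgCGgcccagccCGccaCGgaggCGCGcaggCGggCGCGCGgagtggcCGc
The Fgfr2 window held 4 CpG, below the median of 7 over all 32851 windows of the same length, whereas those of Fgfr3, Fgfr4 and Etv5 held 26, 20 and 37. In all, 7 of the 10 genes had 9 windows between them, and the other 5 windows held 19 to 30 CpG each. The ETS core CCGGAA, searched on both strands, was found in 2 of the 9 windows, those of Fgfr4 (from base 73) and Spry2 (from base 284), and in 14.9% of all windows. Its longer form CCGGAAGT, which contains the core, was in 0 of the 9 and in 3.89% of all windows. The cyclic AMP element TGACGTCA was in 0 of the 9 and in 1.79% of all, and TATAAA in 0 of the 9 and in 13.6% of all. A match is a description of the letters and no evidence that a factor binds there.

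Between 16578213 and 22488477 fragments were counted per library. Chaf1a stood at 165 to 254 FPKM in the p150DN libraries and at 26.5 to 30.2 FPKM in the 5 EGFP libraries. A pair of features set libraries apart within their groups. EGFP 8-cell replicate 2 had the highest summed level of 14 oocyte and maternal genes among the EGFP 8-cell libraries (262 FPKM against 157 and 186). Most of that excess lay in Omt2b (72.5 FPKM against 19.0 and 11.2 in replicates 1 and 3) and Omt2a (21.2 against 9.84 and 6.91). It was not general, since Zp1, Zp2 and Zp3 were about as high in replicate 1. p150DN replicates 2 and 3 had 20465 and 21282 genes above 0, against 18412 in p150DN replicate 1 and 17310 to 18402 in the EGFP 8-cell libraries. EGFP 8-cell replicate 2 was also the highest of its group for 7 of the 9 FGF genes above 1 FPKM, where it was the highest for 41.1% of 12290 genes measured at that level. Calls that change when EGFP 8-cell replicate 2, or p150DN replicates 2 and 3 together, are left out are given with both values. Leaving out p150DN replicates 2 and 3, or a blastocyst library, left 1 library in that group. Its spread was then taken from the other group. The labelled tissue was checked against marker lists. A marker gene was counted as reaching 1 FPKM in a group if it did so in any library of the group. Of 15 trophectoderm genes 11 reached 1 FPKM in EGFP 8-cell embryos, where Elf5 was listed at 0, and 13 in blastocysts. Their summed levels were 371 to 501 and 1657 to 1685 FPKM. Of 15 cumulus and granulosa cell genes 2 reached 1 FPKM in each group, Nr5a2 and Amhr2, and the defining granulosa genes Foxl2 and Fshr reached at most 0.609 and 0.066 FPKM in any library, with Fshr at 0 in all EGFP 8-cell libraries.

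In EGFP 8-cell embryos Spry2 had the highest mean level of the 10 genes, at 25.0 FPKM ± 7.60 (SD, n = 3), and Fgfr2 followed at 18.1 FPKM ± 1.95 (SD, n = 3), with ranges that overlapped. Fgfr4, Fgfr3, Fgfr1 and Spry4 came next, with means of 9.50, 9.32, 9.02 and 8.04 FPKM and ranges that overlapped from each to the next. Fgf4, Dusp6 and Etv5 lay at 5.20, 3.63 and 3.29 FPKM, again with overlapping ranges, and Etv4 was last at 0.113 FPKM. In blastocysts the order was Spry2, Fgfr2, Fgfr1, Etv5, Dusp6, Fgf4, Fgfr3, Spry4, Fgfr4 and Etv4, so that Fgfr4 moved from the third place to the ninth. In p150DN 8-cell embryos it was Spry2, Fgfr2, Fgfr3, Fgfr1, Etv5, Spry4, Fgfr4, Fgf4, Dusp6 and Etv4, and the ranges of Fgfr2 and Fgfr3, and of Fgfr3 and Fgfr1, overlapped. Among genes with a mean above 0 over the 8 libraries, the mean of Spry2 was above that of 87.6% and the mean of Fgfr2 above that of 84.0%.

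**Figure D1:**
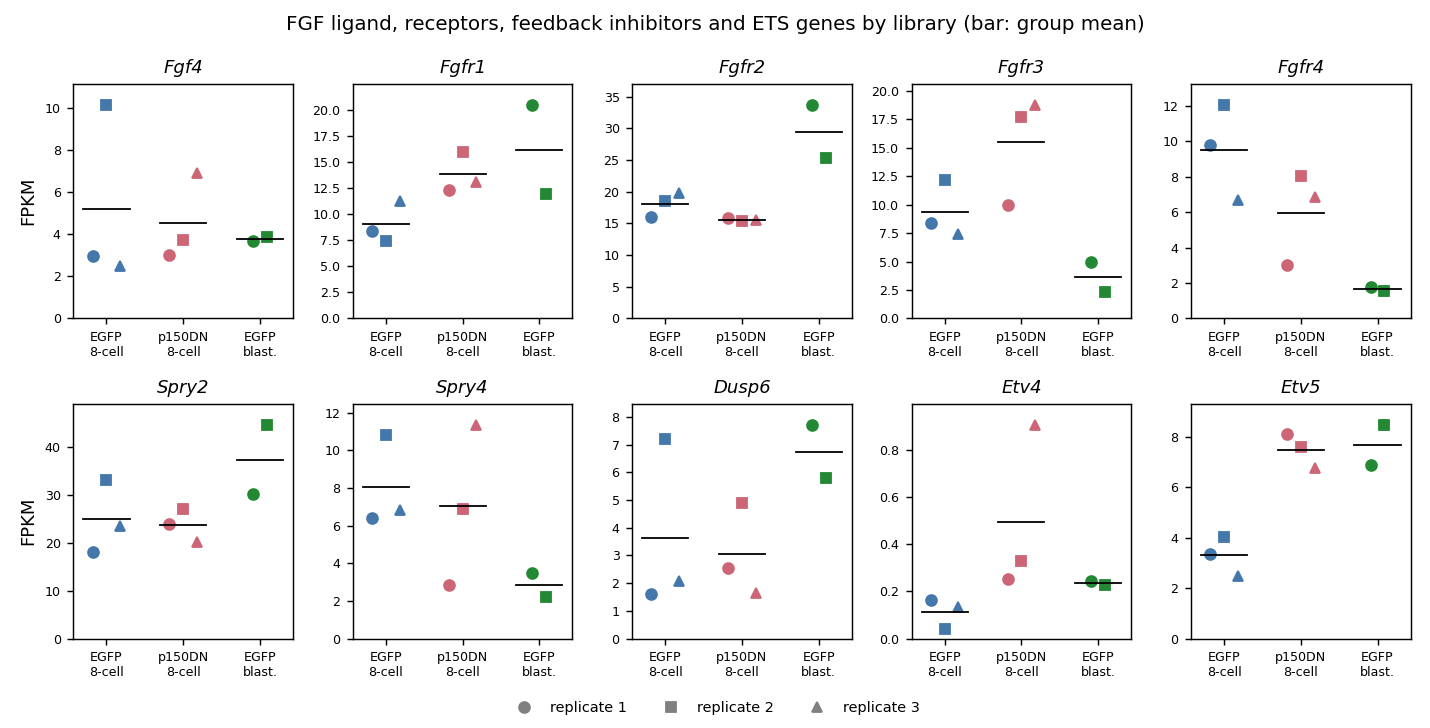
FPKM (vertical axis, linear, from 0, with its own scale for each gene) of the 10 FGF genes in each of the 8 libraries, by group along the horizontal axis, with marker shapes for replicate numbers and a bar at the group mean. Etv5 sits at 2.48 to 4.03 FPKM in EGFP 8-cell libraries and at 6.74 to 8.45 FPKM in the other libraries, and EGFP 8-cell replicate 2 stands well above its group for Fgf4 and Dusp6.

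Differences between groups were tested with limma on log2(FPKM + 1), a scale that understates the change of low genes, and p-values were adjusted by Benjamini-Hochberg over all genes tested. A gene was called higher or lower at an adjusted p below 0.05. Of the 10 genes, 9 passed the filter on low values in each comparison, and Etv4 did not. The question of the first comparison was how interference with p150 altered gene expression at the 8-cell stage, and the blastocyst comparison gave the normal course of the same genes. Both use the same 3 EGFP 8-cell libraries, so their values stand side by side without being independent, and p150DN 8-cell embryos were also set against blastocysts directly.

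In p150DN against EGFP 8-cell embryos, 2 of the 9 tested genes were called higher, Etv5 and Fgfr1, 0 were called lower, and 7 did not pass. Over all 11730 genes tested 24.6% were called higher and 9.68% lower, 34.3% in either direction, so the count of 2 in 9 was no higher than the background. By limma at an unadjusted p below 0.05, 3 of the 9 were higher (Fgfr3 in addition) and 0 lower. The groups did not overlap for 3 of the 9 genes, Etv5, Fgfr1 and Fgfr2, where 49.8% of all genes tested did not. The median log2 fold change of the 9 was -0.04, and that of all genes tested was 0.19. That general shift depended on scaling: it was -0.06 with median-of-ratios scaling and -0.03 with quantile normalization. Among all genes called, 71.8% were higher, against 43.9% and 49.3% with those scalings.

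Between the stages, from EGFP 8-cell embryos to EGFP blastocysts, 3 of the 9 genes rose, Etv5, Fgfr1 and Fgfr2, and 3 fell, Fgfr4, Spry4 and Fgfr3. The background was large, with 42.6% of 12199 genes called higher, 24.9% lower and 67.5% either way. The groups did not overlap for 6 of the 9 genes, the same 6, and for 79.6% of all genes tested. The median log2 fold change was 0.58 for the 9 and 0.28 for all genes tested, and the latter was 0.09 and 0.03 with the other scalings. Among all genes called between the stages 63.1% were higher, against 51.0% with quantile normalization. In p150DN 8-cell embryos against blastocysts, 2 genes were called higher, Fgfr3 and Fgfr4, and 1 lower, Fgfr2, against 11.9% and 14.2% of 12648 genes tested and 26.1% in either direction. Here 5 of the 9 genes did not overlap, against 61% of all genes, and the medians were -0.03 and -0.05.

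**Figure D2:**
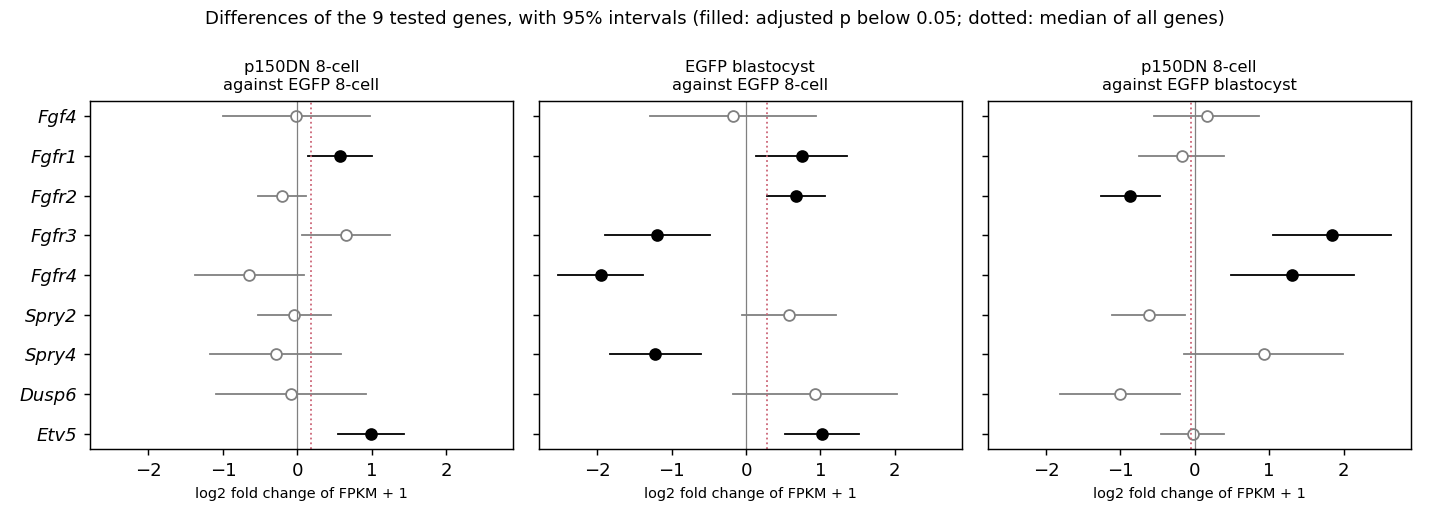
Log2 fold change of FPKM + 1 (horizontal axis) for the 9 tested FGF genes in the 3 comparisons, with 95% intervals from limma as lines, filled points for an adjusted p below 0.05 and a dotted line at the median of all genes. Etv5 lies near 1 in both comparisons against EGFP 8-cell embryos and near 0 between p150DN 8-cell embryos and blastocysts, whereas Fgfr3 and Fgfr4 lie to the left in blastocysts against EGFP 8-cell embryos and to the right in p150DN 8-cell embryos against blastocysts.

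Fgf4, on chromosome 7 at 144861386 to 144865245, encodes the FGF ligand of the early inner cell mass. It stood at 2.96, 10.1 and 2.51 FPKM in EGFP 8-cell replicates 1 to 3, at 3.03, 3.74 and 6.90 FPKM in p150DN replicates 1 to 3, and at 3.68 and 3.87 FPKM in the blastocyst replicates. All groups overlapped, and EGFP 8-cell replicate 2 was the highest of the 8 libraries, with 622 fragments where the others had 147 to 347. Fgf4 did not pass in p150DN 8-cell embryos (log2 fold change -0.01 ± 0.44 (SE), 95% interval -1.0 to 0.98, adjusted p = 0.98) or in blastocysts (-0.17 ± 0.47, interval -1.29 to 0.95, adjusted p = 0.76) against EGFP 8-cell embryos. At this spread no difference in Fgf4 was detected, and the intervals hold changes of about 1 log2 unit in either direction. This does not show that the levels were alike. Without EGFP 8-cell replicate 2 the estimates turned to 0.51 (adjusted p = 0.25) and 0.36 (adjusted p = 0.11), and neither passed.

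Fgf4 was 1 of 4 genes of the 22 in the FGF family that reached 1 FPKM in every EGFP 8-cell library, beside Fgf1, Fgf3 and Fgf22. Between the stages Fgf1 fell from 12.99 FPKM ± 3.12 (SD, n = 3) to 0.354 FPKM ± 0.127 (SD, n = 2), with a log2 fold change of -3.35 ± 0.23 (SE, adjusted p = 4.52e-05). Fgf3 fell from 6.53 to 0.421 FPKM (log2 fold change -2.35 ± 0.30, adjusted p = 0.00048) and Fgf22 from 2.53 to 0.680 FPKM (-0.99 ± 0.33, adjusted p = 0.031). The call of Fgf22 was lost without EGFP 8-cell replicate 1 (adjusted p = 0.071) or blastocyst replicate 1 or 2 (0.10 and 0.13). These 3 genes were picked out after their values were seen. All 3 were below 1 FPKM in both blastocyst libraries, so they passed the filter between the stages through their EGFP 8-cell values alone. Fgf4 and Fgf13 were then the 2 FGF genes at 1 FPKM or more in both blastocyst libraries. In p150DN 8-cell embryos Fgf1 was at 6.28, 10.4 and 8.36 FPKM and Fgf3 at 3.25, 4.84 and 6.37 FPKM, which did not pass against EGFP 8-cell embryos (adjusted p = 0.080 and 0.39) and was above blastocysts for both genes (adjusted p = 0.0021 and 0.0062). For Fgf1 the p150DN difference of -0.58 from EGFP 8-cell embryos passed as lower with median-of-ratios scaling (-0.85, adjusted p = 0.013), with quantile normalization (-0.82, adjusted p = 0.020) and without p150DN replicate 2 (-0.74, adjusted p = 0.045). For Fgf3 the call against blastocysts was lost without blastocyst replicate 2 (adjusted p = 0.054). Against blastocysts Fgf1 and Fgf3 passed the filter through their p150DN values alone. Of 6 ligands tested besides Fgf4 in p150DN against EGFP 8-cell embryos, 0 were called lower, with 2 lower at an unadjusted p below 0.05 (Fgf1 and Fgf22), and 2 were called lower with median-of-ratios scaling or quantile normalization. Fgf18, a ligand best known from skeletal development, rose in p150DN 8-cell embryos, from 0.592 FPKM ± 0.314 (SD, n = 3) to 2.23 FPKM ± 0.319 (SD, n = 3), with a log2 fold change of 1.04 ± 0.22 (SE, adjusted p = 0.0076), a call that was lost under quantile normalization (adjusted p = 0.055). With any 1 p150DN library left out, or with replicates 2 and 3 left out, Fgf18 did not pass the filter on low values and gave no value, and the same held for Flrt1, a receptor partner, and Fosl1, a transcription gene that responds to ERK. Fgf18, Flrt1 and Fosl1 were below 1 FPKM in every EGFP 8-cell library, so they passed the filter through their p150DN values alone. Fgf18 was the 1 ligand called higher of those 6.

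Fgfr1, on chromosome 8 at 25518759 to 25575718, encodes the receptor found in all cells of the inner cell mass. Its levels were 8.38, 7.41 and 11.3 FPKM in EGFP 8-cell replicates, 12.3, 15.9 and 13.1 FPKM in p150DN replicates, and 20.5 and 11.9 FPKM in blastocysts. The EGFP 8-cell libraries were the lowest 3 of the 8. Fgfr1 was higher in p150DN 8-cell embryos by 0.57 ± 0.19 on the log2 scale (SE, 95% interval 0.14 to 1.00, adjusted p = 0.044), a call lost under both other scalings (adjusted p = 0.25 and 0.21) and without EGFP 8-cell replicate 1 or 2 (both 0.13) or p150DN replicate 1, 2 or 3 (0.052, 0.11 and 0.096). Without p150DN replicates 2 and 3 together the estimate was 0.43 (adjusted p = 0.28). In blastocysts it was higher by 0.75 ± 0.26 (adjusted p = 0.036), a call likewise lost under both scalings (0.11 and 0.20) and without EGFP 8-cell replicate 1 (0.090), EGFP 8-cell replicate 2 (0.081) or blastocyst replicate 1 (0.26). The estimate was positive in each of these alternatives.

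Fgfr2, on chromosome 7 at 130162451 to 130266808, encodes the receptor that marks the trophectoderm and the future primitive endoderm. It was the most even of the receptors in p150DN 8-cell embryos, at 15.8, 15.3 and 15.5 FPKM, just below the EGFP 8-cell replicates at 15.96, 18.6 and 19.8 FPKM, and it reached 33.7 and 25.3 FPKM in blastocysts. No p150DN library reached the lowest EGFP library, and both blastocysts lay above all 8-cell libraries. From EGFP 8-cell embryos to blastocysts Fgfr2 rose by 0.67 ± 0.17 on the log2 scale (SE, adjusted p = 0.0096), which was lost without blastocyst replicate 1 (0.47, adjusted p = 0.086). The p150DN difference from EGFP 8-cell embryos was small and did not pass (-0.20 ± 0.14, 95% interval -0.52 to 0.12, adjusted p = 0.29), but Fgfr2 was called lower with median-of-ratios scaling (-0.48, adjusted p = 0.042). Against blastocysts the p150DN level was lower by -0.87 ± 0.17 (adjusted p = 0.014), lost without blastocyst replicate 1 or 2 (adjusted p = 0.12 and 0.058) and without p150DN replicates 2 and 3 (-0.84, adjusted p = 0.054).

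Fgfr3, on chromosome 5 at 33721724 to 33737068, encodes a receptor known chiefly from cartilage. Its levels were 8.37, 12.2 and 7.41 FPKM in EGFP 8-cell replicates, 9.98, 17.7 and 18.7 FPKM in p150DN replicates, and 4.94 and 2.31 FPKM in blastocysts. The blastocysts were lowest, and p150DN replicates 2 and 3 highest, with p150DN replicate 1 inside the EGFP 8-cell range. Fgfr3 fell between the stages by 1.19 on the log2 scale, with an SE of 0.30 (adjusted p = 0.010), a call lost without blastocyst replicate 2 (-0.77, adjusted p = 0.068). In p150DN against EGFP 8-cell embryos the estimate of 0.65 ± 0.26 did not pass (95% interval 0.06 to 1.25, adjusted p = 0.084). It passed without p150DN replicate 1 (0.92, adjusted p = 0.018), and without p150DN replicates 2 and 3 it was 0.12 (adjusted p = 0.80). Against blastocysts the p150DN level was higher by 1.84 ± 0.34 (adjusted p = 0.012), from means of 15.5 against 3.63 FPKM, and that call was lost without blastocyst replicate 2 (1.42, adjusted p = 0.091) and without p150DN replicates 2 and 3 (1.31, adjusted p = 0.070).

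Fgfr4, on chromosome 13 at 55152818 to 55168759, encodes the receptor best known from bile acid control in liver. EGFP 8-cell replicates held 9.77, 12.0 and 6.69 FPKM, p150DN replicates 3.03, 8.01 and 6.83 FPKM, and blastocysts 1.77 and 1.53 FPKM. Both blastocysts lay below every 8-cell library, and p150DN replicate 1 lay below the other 5 of the 8-cell libraries. The fall between the stages was the largest among the 9 tested genes, by 1.95 on the log2 scale with an SE of 0.24 (adjusted p = 0.00043), and it passed in all 12 alternatives, between -2.42 and -1.78. In p150DN 8-cell embryos Fgfr4 did not pass against EGFP 8-cell embryos (-0.64 ± 0.32, 95% interval -1.37 to 0.09, adjusted p = 0.15), though it was called lower with median-of-ratios scaling (-0.90, adjusted p = 0.036) and with quantile normalization (-0.93, adjusted p = 0.040). The estimate was -0.29 (adjusted p = 0.40) without p150DN replicate 1. Without p150DN replicates 2 and 3, where 1 p150DN library was left, the estimate was -1.35. It was higher than in blastocysts by 1.31 ± 0.35 (adjusted p = 0.035), which was lost without p150DN replicate 2 (0.079) or 3 (0.084) or blastocyst replicate 1 (0.13) or 2 (0.17). Without p150DN replicates 2 and 3 together it was 0.61 (adjusted p = 0.11). Summed oocyte and maternal genes ran from 157 to 262 FPKM in EGFP 8-cell and from 70.5 to 140 FPKM in p150DN 8-cell libraries. In blastocyst libraries they ran from 21.5 to 22.3 FPKM. All 14 reached 1 FPKM in both 8-cell groups, but Mos, Oosp1, Omt2a and Omt2b were below 1 FPKM in p150DN replicate 1. The lowest p150DN sum was in replicate 1, the library of the lowest p150DN Fgfr4. The part of the oocyte and maternal genes in the Fgfr4 values was not tested.

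As shares of the summed FPKM of the 4 receptors, Fgfr1 and Fgfr2 together made up 57.3, 51.8 and 68.7% in EGFP 8-cell replicates, 68.4, 54.9 and 52.8% in p150DN replicates, and 89.0 and 90.6% in blastocysts. The blastocysts stood apart from all 8-cell libraries, and the 8-cell groups overlapped. Within these totals the share of Fgfr4 was 20.6% ± 5.02 (SD, n = 3) in EGFP 8-cell, 11.3% ± 3.53 (SD, n = 3) in p150DN 8-cell and 3.31% ± 0.569 (SD, n = 2) in blastocyst libraries. The share of Fgfr3 was 20.1% ± 3.93, 30.0% ± 5.27 and 6.88% ± 1.76 in the same order. All 3 p150DN shares of Fgfr4, 7.35 to 14.1%, lay below the EGFP 8-cell range of 14.8 to 24.0%. For Fgfr3 p150DN replicates 2 and 3 (31.0 and 34.6%) lay above the EGFP 8-cell range of 16.4 to 24.3%, and p150DN replicate 1 (24.2%) lay within it. The summed level itself was 42.5 to 50.2, 41.2 to 56.9 and 41.1 to 60.9 FPKM in EGFP 8-cell, p150DN 8-cell and blastocyst libraries, with all 3 ranges overlapping. These shares are a description of values tested above and were not tested again.

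**Figure D3:**
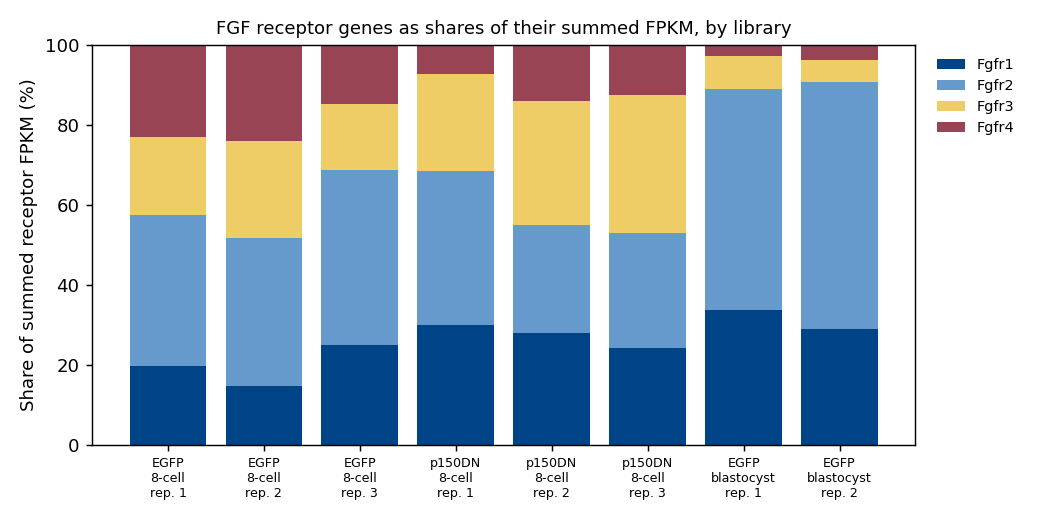
Stacked bars of the share of each FGF receptor gene in the summed FPKM of the 4 receptor genes (vertical axis, percent), 1 bar per library, by group. Fgfr1 and Fgfr2 together fill 89.0 and 90.6% of the blastocyst bars and 51.8 to 68.7% of the 8-cell bars, and the Fgfr4 segment is largest in EGFP 8-cell libraries.

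Spry2, on chromosome 14 at 105891947 to 105896819, encodes a Sprouty protein that restrains receptor signalling to RAS. It was at 18.2, 33.2 and 23.7 FPKM in EGFP 8-cell replicates, 23.9, 27.1 and 20.3 FPKM in p150DN replicates, and 30.2 and 44.7 FPKM in blastocysts. The p150DN libraries lay inside the EGFP 8-cell range, and blastocyst replicate 2 above all others. Spry2 did not pass in p150DN 8-cell embryos (-0.04 ± 0.22 on the log2 scale, 95% interval -0.53 to 0.45, adjusted p = 0.90) or in blastocysts (0.58 ± 0.27, adjusted p = 0.090) against EGFP 8-cell embryos. The blastocyst estimate passed without EGFP 8-cell replicate 2 (0.80, adjusted p = 0.018).

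Spry4, a second Sprouty gene, lies on chromosome 18 at 38586247 to 38601347. It was at 6.43, 10.8 and 6.84 FPKM in EGFP 8-cell replicates, at 2.87, 6.89 and 11.3 FPKM in p150DN replicates, and at 3.49 and 2.21 FPKM in blastocysts. The p150DN replicates spread from within the blastocyst range to above every EGFP 8-cell library. Between the stages Spry4 fell by 1.22 on the log2 scale, with an SE of 0.26 (adjusted p = 0.0051), and passed in all 12 alternatives, between -1.58 and -0.98. In p150DN against EGFP 8-cell embryos it did not pass (-0.29 ± 0.39, interval -1.17 to 0.59, adjusted p = 0.59). The estimate was 0.16 without p150DN replicate 1 and -1.19 without p150DN replicates 2 and 3, where 1 p150DN library was left.

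Dusp6, on chromosome 10 at 99263231 to 99267489, encodes the phosphatase that removes the activating phosphates of ERK in the cytoplasm. Its levels were 1.61, 7.19 and 2.09 FPKM in EGFP 8-cell replicates, 2.56, 4.90 and 1.66 FPKM in p150DN replicates, and 7.70 and 5.79 FPKM in blastocysts. As for Fgf4, EGFP 8-cell replicate 2 stood far above the rest of its group and reached into the blastocyst range. Dusp6 did not pass in blastocysts against EGFP 8-cell embryos (0.93 ± 0.47 on the log2 scale, 95% interval -0.18 to 2.03, adjusted p = 0.12), and passed without that library (1.44, adjusted p = 0.0014). In p150DN against EGFP 8-cell embryos the estimate was -0.08 ± 0.45 (interval -1.09 to 0.93, adjusted p = 0.90), or 0.43 (adjusted p = 0.38) without that library. Against blastocysts every p150DN library was lower, by -1.01 ± 0.34, which did not pass (adjusted p = 0.067) and passed without p150DN replicate 2 (-1.32, adjusted p = 0.026). The estimate was -1.11 without p150DN replicates 2 and 3, where 1 p150DN library was left. The summed level of the oocyte and maternal genes was also highest in EGFP 8-cell replicate 2, mostly through Omt2b and Omt2a. The part of these genes in the Fgf4 and Dusp6 values of that library was not tested.

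Etv5, on chromosome 16 at 22381313 to 22439570, encodes an ETS factor induced by FGF signalling in many tissues. Its levels were 3.37, 4.03 and 2.48 FPKM in EGFP 8-cell replicates, 8.09, 7.58 and 6.74 FPKM in p150DN replicates, and 6.89 and 8.45 FPKM in blastocysts. All 3 p150DN libraries and both blastocysts lay above all 3 EGFP 8-cell libraries. The mean went from 3.29 FPKM ± 0.777 (SD, n = 3) to 7.47 FPKM ± 0.680 (SD, n = 3) with p150DN, 2.27 times as much, a log2 fold change of 0.99 ± 0.20 (SE, 95% interval 0.55 to 1.44, adjusted p = 0.0058). The rise passed in all 14 alternatives, with log2 fold changes of 0.63 to 1.18 and adjusted p of 0.0026 to 0.039, and it was as large without EGFP 8-cell replicate 2 (1.12), and the call held without p150DN replicates 2 and 3 (adjusted p = 0.037). To blastocysts Etv5 rose by 1.02 ± 0.21 (adjusted p = 0.0041), and that passed in all 12 alternatives (0.60 to 1.21). Between p150DN 8-cell embryos and blastocysts the difference did not pass (-0.03 ± 0.18, adjusted p = 0.91), with an interval of -0.46 to 0.40. Summed trophectoderm markers, 13 of 15 of which reached 1 FPKM in p150DN 8-cell embryos, stood at 614 to 924 FPKM there, between EGFP 8-cell embryos (371 to 501 FPKM) and blastocysts (1657 to 1685 FPKM). Summed inner cell mass and epiblast markers, all 14 of which reached 1 FPKM in p150DN 8-cell embryos, stood at 885 to 1122 FPKM there, at 690 to 866 FPKM in EGFP 8-cell embryos and at 1323 to 1421 FPKM in blastocysts. Summed primitive endoderm markers, of which 10 of 16 reached 1 FPKM in p150DN 8-cell embryos and Foxa2 was listed at 0 in EGFP 8-cell embryos, stood at 245 to 289, 161 to 218 and 334 to 357 FPKM in the same order. These sums do not describe every member, and Dab2 is in both the trophectoderm and the primitive endoderm list. Dab2 stood at 15.1 to 21.2 FPKM in EGFP 8-cell and 70.5 to 82.7 FPKM in p150DN 8-cell libraries. The 8-cell groups overlapped for Gata6. Sox17 was at 0 to 0.0884 FPKM in p150DN 8-cell libraries and at 1.44 and 1.31 FPKM in blastocysts. Lamc1 and Col4a1 were higher in every p150DN library than in every EGFP 8-cell library. The counts took any library of a group, and in p150DN replicate 1 Gata2 and Bmp4 were at 0 and Prdm14 at 0.606 FPKM. Krt18 stood at 4.36 to 6.79 FPKM in EGFP 8-cell and 117 to 241 FPKM in p150DN 8-cell libraries. Tead4 went the other way, from 138 to 151 FPKM down to 52.9 to 69.1 FPKM. Klf2, Esrrb and Gata4 were also lower in every p150DN library than in every EGFP 8-cell library. Hand1 was lower in both blastocysts than in every 8-cell library. The part of these marker lists in the Etv5 values was not tested.

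Etv4, on chromosome 11 at 101769747 to 101785310, the close relative of Etv5, was near the limit of the data. Its levels were 0.165, 0.042 and 0.133 FPKM in EGFP 8-cell replicates, 0.252, 0.329 and 0.905 FPKM in p150DN replicates, and 0.244 and 0.229 FPKM in blastocysts. These rest on 2 to 8 fragments in EGFP 8-cell, 12 to 35 in p150DN and 11 and 12 in blastocyst libraries, and every p150DN library was above every EGFP library. Etv4 stayed below the filter of 1 FPKM in all 8 libraries, so the difference was not tested.

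For Fgf4, Fgfr2 and Dusp6 the genes of most similar pattern were sought, by the mean absolute difference of centred log2(FPKM + 1) over the 8 libraries, among 7084 genes with a proper symbol that averaged 5 FPKM or more. For Fgf4 these were Clip1, Cyb5b and Otud3, at 0.22, 0.23 and 0.25 log2 units, all 3 highest or nearly so in EGFP 8-cell replicate 2 (17.9, 20.4 and 10.6 FPKM). For Fgfr2 they were Tmem9b, Yif1a and Abcf3, at 0.10, 0.10 and 0.11 log2 units. For Dusp6 they were Bace1, Asah1 and Ptpn3, at 0.22, 0.28 and 0.28 log2 units. Like Fgfr2, these genes of the Fgfr2 pattern had their highest values in the blastocyst libraries, and so did the genes found for Dusp6. Likeness over 8 libraries that share 3 groups is a description only.

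The genes around these 10 in the pathway were taken from 5 lists of 94 genes, 93 of which were in the data. Counts for these lists without doubted libraries or with other scaling were added after seeing the data. Among 9 tested receptor partners and heparan sulphate enzymes, 3 were called higher in p150DN against EGFP 8-cell embryos and 0 lower, where 24.6% of all genes were higher and 9.68% lower, and 0 were lower also at an unadjusted p below 0.05 by limma. With median-of-ratios scaling 3 were higher and 1 lower, with quantile normalization 1 was higher and 1 lower, and without p150DN replicates 2 and 3 1 was higher. Sulf2, which removes sulphates from heparan sulphate and thereby alters FGF binding, rose from 2.79 FPKM ± 0.570 (SD, n = 3) to 8.55 FPKM ± 1.22 (SD, n = 3), with a log2 fold change of 1.34 ± 0.19 (adjusted p = 0.0016). It held in all 14 alternatives. Flrt1, a membrane partner of FGF receptors, and Ext2, which builds heparan sulphate chains, rose to 1.69 and 2.18 FPKM from 0.474 and 0.879 FPKM (log2 fold changes of 0.88 and 0.75), but quantile normalization ended both calls (adjusted p = 0.085 and 0.17). Leaving out EGFP 8-cell replicate 1 ended both as well, and leaving out p150DN replicate 2 or 3, or using no filter, ended that of Ext2, which did not pass the filter without both p150DN replicates. Flrt1, among the 3 called higher, was below 1 FPKM in every EGFP 8-cell library and passed the filter through its p150DN values alone. The median of this list was 0.42 on the log2 scale, and that of all genes 0.19. With median-of-ratios scaling these medians were 0.17 and -0.06, with quantile normalization 0.07 and -0.03, and without p150DN replicates 2 and 3 0.11 and 0.10.

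Of 24 tested adaptors and members of the RAS and ERK cascade, 7 were called higher and 2 lower in p150DN 8-cell embryos, near the 24.6% and 9.68% of all genes, with a median of 0.13. With median-of-ratios scaling the split was 5 higher and 5 lower, with quantile normalization 3 and 3, and without p150DN replicates 2 and 3 it was 3 and 1. Frs2, the docking protein that links FGF receptors to RAS, rose from 11.1 FPKM ± 0.598 (SD, n = 3) to 22.4 FPKM ± 3.66 (SD, n = 3), with a log2 fold change of 0.95 ± 0.16 (adjusted p = 0.0029). Rps6ka1, a kinase activated by ERK, rose from 7.63 to 20.5 FPKM (log2 fold change 1.29 ± 0.24, adjusted p = 0.0047). Both of these passed in all 14 alternatives. Mapk3, which encodes ERK1, rose from 2.02 to 5.05 FPKM (0.98 ± 0.22, adjusted p = 0.0091), and Rps6ka3, a second ERK-activated kinase, from 1.12 to 3.69 FPKM (1.08 ± 0.28, adjusted p = 0.018). Quantile normalization ended the calls of Mapk3 and Rps6ka3 (adjusted p = 0.055 and 0.054), and both were lost without p150DN replicates 2 and 3 together (0.72, adjusted p = 0.079, and 0.45, adjusted p = 0.23). That of Rps6ka3 was also lost with no filter and without EGFP 8-cell replicate 1, p150DN replicate 2 or p150DN replicate 3. Between the stages 11 of 25 tested genes of this list rose and 5 fell, against 42.6% and 24.9% of all genes.

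Of the other feedback inhibitors, 12 were tested, and 4 were called higher and 1 lower in p150DN 8-cell embryos, where 24.6% of all genes were higher and 9.68% lower. Dusp9, among those called higher, was below 1 FPKM in every EGFP 8-cell library and passed the filter through its p150DN values alone. The median of the list was 0.10 on the log2 scale, and that of all genes 0.19. With quantile normalization 2 were higher and 1 lower, and without p150DN replicates 2 and 3 the split was 1 and 1. Dusp4, a phosphatase that acts on ERK in the nucleus, was at 2.35, 5.17 and 1.15 FPKM in EGFP 8-cell replicates, at 9.87, 6.15 and 30.1 FPKM in p150DN replicates, and at 37.6 and 48.1 FPKM in blastocysts. Its groups did not overlap in any of the comparisons, and its log2 fold change with p150DN was 1.92 ± 0.54 (adjusted p = 0.024), a call lost under quantile normalization (0.056) and without EGFP 8-cell replicate 1 or 3 or p150DN replicate 3 (0.061 to 0.073). It was also lost with no filter (0.075) and without p150DN replicates 2 and 3 (1.62, adjusted p = 0.069). Dusp1, an immediate early phosphatase, rose from 1.59 FPKM ± 0.765 (SD, n = 3) to 6.76 FPKM ± 0.429 (SD, n = 3), with a log2 fold change of 1.63 ± 0.25 (adjusted p = 0.0020), and held in all 14 alternatives. Dusp5, another nuclear ERK phosphatase, rose from 0.947 to 3.43 FPKM (1.18 ± 0.30, adjusted p = 0.017), which was lost with no filter (0.061), without EGFP 8-cell replicate 1, p150DN replicate 2 or p150DN replicate 3, and without both p150DN replicates (0.65, adjusted p = 0.22). Spred1, a Sprouty-related inhibitor of RAS signalling, went the other way, from 11.2, 16.2 and 12.2 FPKM to 4.82, 5.43 and 6.03 FPKM, with no overlap and a fall by 1.13 on the log2 scale, SE 0.19 (adjusted p = 0.0026). The fall of Spred1 held in all 14 alternatives.

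The list named other ERK response transcription genes includes Srf, Elk1 and Elk4, and the response of its genes to ERK was not tested. Of 11 tested genes of this list, 4 were called higher and 2 lower in p150DN 8-cell embryos. Over all genes 24.6% were higher and 9.68% lower, and the medians were 0.23 for the list and 0.19 for all genes. The split was 4 and 4 with median-of-ratios scaling, 3 and 4 with quantile normalization, and 2 and 2 without p150DN replicates 2 and 3. Ier2, an immediate early gene, rose from 2.74 FPKM ± 1.57 (SD, n = 3) to 15.5 FPKM ± 1.65 (SD, n = 3), with a log2 fold change of 2.25 ± 0.32 (adjusted p = 0.0015). Fosl1, a FOS relative in the AP-1 complex, was at 0, 0.261 and 0.758 FPKM in EGFP 8-cell replicates and at 1.90, 10.4 and 8.49 FPKM in p150DN replicates (log2 fold change 2.38 ± 0.48, adjusted p = 0.0061). Phlda1 rose from 8.20 to 22.4 FPKM (1.37 ± 0.19, adjusted p = 0.0014). Klf2, a pluripotency factor that ERK is known to destabilise as a protein, fell from 107 FPKM ± 5.24 (SD, n = 3) to 51.5 FPKM ± 2.35 (SD, n = 3), by 1.04 on the log2 scale with an SE of 0.11 (adjusted p = 0.00047). The calls of Ier2, Phlda1 and Klf2 held in all 14 alternatives. Fosl1 was below 1 FPKM in every EGFP 8-cell library and passed the filter through its p150DN values alone. Its call held in the 9 alternatives that gave a value, none of which left out a p150DN library. Ier3, also called higher, passed the filter in the same way.

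**Figure D4:**
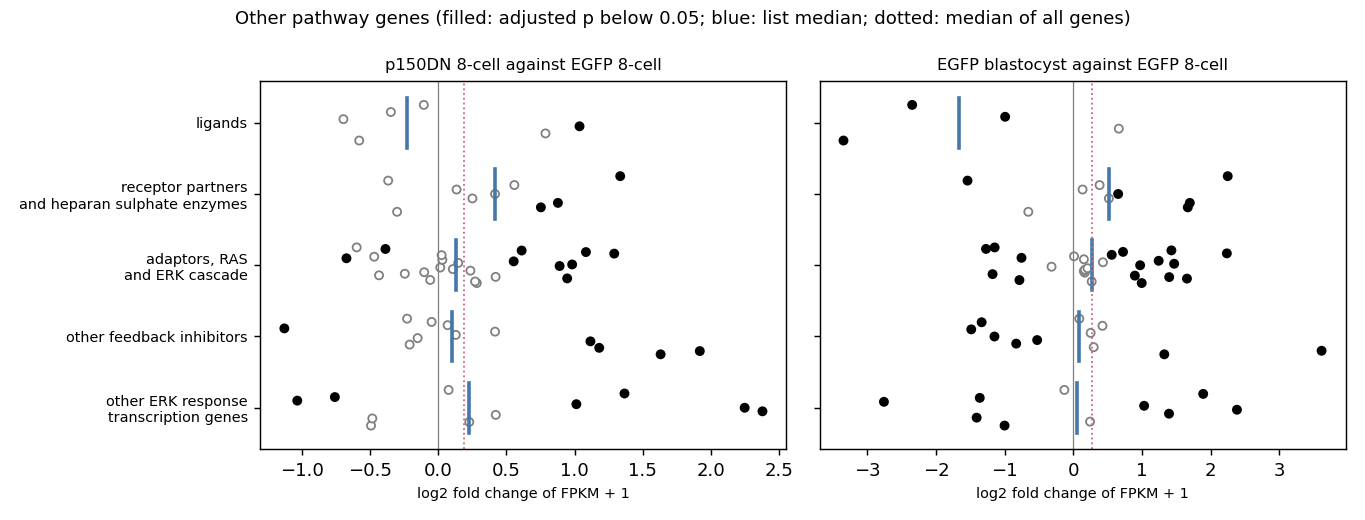
Log2 fold change of FPKM + 1 (horizontal axis) of each tested gene in the 5 lists of other pathway genes, for p150DN against EGFP 8-cell embryos (left) and EGFP blastocysts against EGFP 8-cell embryos (right), with filled points for an adjusted p below 0.05, a blue bar at the median of the list and a dotted line at the median of all genes. Each list holds genes on both sides of 0, and the medians in p150DN 8-cell embryos run from -0.23 for ligands to 0.42 for receptor partners and heparan sulphate enzymes, with 0.19 for all genes.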

How the data were processed

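The 8 RNA-seq libraries of the series were used, and its other 65 samples were not analysed here. Per the labels' protocols, a stranded SMART-seq kit was applied to total RNA. The submitters' processing notes name HISAT2, Bowtie2, featureCounts, SAMtools, Trim Galore and the build mm10, without roles. The sources used here do not give the annotation or the strand setting, so reads of overlapping or antisense genes may be mixed. The authors deposited FPKM, per the file headers, in 1 column per library. The 8-cell columns whose names hold no treatment were assigned to EGFP 8-cell, the single labelled 8-cell RNA-seq group that lacks p150DN.

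Of 25220 symbols, 24920 matched a RefSeq table (GRCm38.p6, the assembly of mm10), the source of coordinates. Fragments per library were recovered from the value of 1 fragment in short genes. limma 3.58.1 in R 4.3.3 (eBayes with trend) was run, two-sided, on log2(FPKM + 1) of the compared groups, for genes that reached 1 FPKM in 3 or more libraries (first comparison) or in 2 or more (the others). It was tested on simulated data. Alternatives were a pseudocount of 0.1, no filter or 5 FPKM, median-of-ratios scaling, quantile normalization, all libraries in 1 fit, a replicate block, and leaving out libraries. FPKM are not counts, so no count test was run.

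The 10 genes, the lists and the tests were chosen with earlier results of these data known. Beside the 10, up to 4 called genes per pathway list with the largest p150DN change, and 3 genes of like pattern for Fgf4, Fgfr2 and Dusp6, were named by rule.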

Additional observations from a re-analysis of the deposited data

How the results depend on the processing

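Of the fold changes of the 9 tested genes, 98 of 124 alternative values for p150DN against EGFP 8-cell embryos, 95 of 107 for blastocysts against EGFP 8-cell embryos and 93 of 116 for p150DN 8-cell embryos against blastocysts kept their direction and their side of the threshold. With 5 FPKM as the filter Fgf4 gave no value in any comparison and Dusp6 none in the first. For p150DN against EGFP 8-cell embryos the 2 genes called higher became 1, Etv5, with no filter, median-of-ratios scaling, quantile normalization, all 8 libraries in 1 fit, the replicate block, or without p150DN replicates 2 and 3, and 1 to 2 when each library was left out in turn. The 0 called lower became 2 (Fgfr2 and Fgfr4) after median-of-ratios scaling and 1 (Fgfr4) after quantile normalization. Without p150DN replicates 2 and 3, where 1 p150DN library was left, the estimates of Fgfr4 and Spry4 were -1.35 and -1.19. For blastocysts against EGFP 8-cell embryos 1 to 4 were called higher and 2 to 3 lower when each library was left out. For p150DN 8-cell embryos against blastocysts the 2 called higher became 1 with no filter, 0 without p150DN replicates 2 and 3, and 0 to 3 when each library was left out, and the 1 called lower became 0 to 2.

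Estimates near 0 changed sign. In p150DN against EGFP 8-cell embryos, leaving out each library gave log2 fold changes of -0.32 to 0.51 for Fgf4, -0.24 to 0.18 for Spry2, -0.68 to 0.16 for Spry4 and -0.40 to 0.43 for Dusp6, and Fgf4 was 0.014 with a pseudocount of 0.1. In blastocysts against EGFP 8-cell embryos Fgf4 ran from -0.48 to 0.36. In p150DN 8-cell embryos against blastocysts Fgf4 ran from -0.13 to 0.36, Fgfr1 from -0.54 to 0.19 and Etv5 from -0.16 to 0.10. There Fgf4 was -0.13 with the replicate block and -0.25 without p150DN replicates 2 and 3, and Etv5 was 0.047 after quantile normalization, 0.032 with the replicate block and 0.074 without those replicates. The cause was not tested.

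Whether replicate numbers pair the libraries was not settled. p150DN and EGFP 8-cell libraries of the same number had correlated deviations of 0.062, 0.099 and 0.035 over 11730 genes. All were positive and none was above the threshold of 0.1, and so few libraries cannot decide the matter. p150DN replicates 2 and 3 correlated best with their own number, and p150DN replicate 1 with EGFP 8-cell replicate 3 (0.078). With the replicate block Fgfr1 did not pass with p150DN (adjusted p = 0.061), Fgf1 passed as lower with p150DN (adjusted p = 0.029), and Spry2 passed in blastocysts (adjusted p = 0.022). Where 1 library remained in a group, it was assumed to vary like the other group.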
